A study of Mus musculus with 6 samples.

Results

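The nucleolar and ribosome biogenesis machinery of B16F10 melanoma cells was examined after depletion of OSGEP. The set held 35 genes of the 55487 in the count table. They were chosen by name from the known machinery and by no cut on a measured value, although earlier results of these data were known. All 35 were listed, all are protein coding, and all passed the filter on low counts, with between 198 and 27504 counts per library. B16F10 is a mouse melanoma line, labelled wild type. The control group (shCtr, n = 3) was infected with a lentivirus carrying a scramble shRNA, and the depleted group (shOSGEP, n = 3) with one carrying an shRNA against OSGEP, the hairpin numbered 2. Infected cells were selected with puromycin, and no further alteration was given for either group. RNA came from 3 independent infections per group, so 1 hairpin in 1 line stands for OSGEP depletion here. In bulk RNA of this kind, fewer cells with a transcript and less transcript per cell cannot be told apart.

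Ribosomes are built in the nucleolus. RNA polymerase I transcribes the ribosomal RNA precursor, box C/D and box H/ACA ribonucleoproteins modify it at chosen bases, and the small-subunit processome folds and cuts it. The particles then part into the pre-40S and pre-60S lines, which mature further before and after export to the cytoplasm. The genes of this machinery are classical targets of MYC and are expressed strongly in growing tumour cells. OSGEP is the catalytic subunit of KEOPS, which places t6A, a threonylated adenosine, next to the anticodon of tRNAs that read codons starting with A. A loss of t6A acts on translation, which polyA RNA sequencing does not measure, and the comparison therefore asks only whether the mRNA levels of these factors differed.

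The share of codons starting with A (ANN codons) was computed for every member from its GENCODE coding sequence, because these are the codons read by t6A-modified tRNAs. It ranged from 19.5% in Gar1 to 34.8% in Nolc1, and 19 of the 35 members lay above 27.0%, the median of the genes tested. The stretches of 20 codons with the most ANN codons are shown for the 4 members with the highest share and the 4 with the lowest, with ANN codons in capitals. Each lies inside a single coding exon, is written 5′ to 3′ on the coding strand and has its coordinates in GRCm38.
Nolc1, chr19:46083123-46083182, plus strand: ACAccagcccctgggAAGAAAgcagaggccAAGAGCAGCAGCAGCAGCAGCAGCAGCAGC
Dkc1, chrX:75108212-75108271, plus strand: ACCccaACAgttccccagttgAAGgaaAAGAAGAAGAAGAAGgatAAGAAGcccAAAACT
Nop58, chr1:59709076-59709135, plus strand: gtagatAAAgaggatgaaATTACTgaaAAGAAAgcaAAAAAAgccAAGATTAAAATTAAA
Noc3l, chr19:38804408-38804467, minus strand: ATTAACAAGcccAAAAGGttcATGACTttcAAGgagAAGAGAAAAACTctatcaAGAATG
Noc4l, chr5:110651324-110651383, minus strand: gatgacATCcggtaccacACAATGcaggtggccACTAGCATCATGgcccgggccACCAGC
Rrp9, chr9:106477689-106477748, plus strand: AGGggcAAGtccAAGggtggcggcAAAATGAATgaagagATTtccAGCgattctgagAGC
Bop1, chr15:76455520-76455579, minus strand: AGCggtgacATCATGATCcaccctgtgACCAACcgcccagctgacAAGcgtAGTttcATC
Gar1, chr3:129829424-129829483, minus strand: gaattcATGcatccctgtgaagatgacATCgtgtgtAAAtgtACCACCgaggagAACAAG
The stretch of Nolc1 (codons 504 to 523, exon 10 of 13) ends in a run of AGC serine codons. That of Dkc1 (codons 458 to 477, exon 14 of 15) held 9 lysine codons among its 12 ANN codons, and that of Nop58 (codons 448 to 467, exon 13 of 15) held 8 among 12. Noc3l had 14 ANN codons in its stretch. Even the richest stretch of Gar1 held 7, and those of Bop1, Rrp9 and Noc4l held 9 each.

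Promoters were examined because MYC binds the E-box, CACGTG. Windows from 250 bases before to 50 bases after the annotated start were taken from RefSeq (GRCm38.p6), which matched 31 of the 35 members. Fbl, Npm1, Bop1 and Rrp12 were not matched. CACGTG, which reads the same on both strands, was found in the windows of 9 of 31 members (29.0%) and of 8.09% of all 27025 genes with a window. The 9 were Ltv1, Nop2, Pes1, Rrn3, Tsr1, Utp18, Utp20, Utp4 and Wdr43. CCGGAAG, the core of an ETS-type site searched on both strands, was found in 11 of 31 (35.5%) against 9.93% of all genes. Neither motif lies within the letters of the other. The windows of Rrn3, the only member with 2 E-boxes, and of Nop2 are shown with the E-box in capitals.
Rrn3, chr16:13780449-13780748, plus strand: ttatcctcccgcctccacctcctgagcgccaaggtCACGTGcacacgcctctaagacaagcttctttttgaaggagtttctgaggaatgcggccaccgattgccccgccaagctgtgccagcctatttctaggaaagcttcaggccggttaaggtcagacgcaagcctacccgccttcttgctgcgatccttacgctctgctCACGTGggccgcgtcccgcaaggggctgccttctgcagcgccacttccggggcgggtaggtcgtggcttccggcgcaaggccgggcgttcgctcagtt
Nop2, chr6:125131633-125131932, plus strand: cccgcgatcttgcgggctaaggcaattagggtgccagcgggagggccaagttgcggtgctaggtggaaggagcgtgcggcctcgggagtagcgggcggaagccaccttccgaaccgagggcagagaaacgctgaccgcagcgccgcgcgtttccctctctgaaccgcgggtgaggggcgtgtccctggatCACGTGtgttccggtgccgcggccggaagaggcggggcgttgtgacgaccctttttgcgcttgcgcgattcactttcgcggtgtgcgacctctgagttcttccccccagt
In Rrn3 the E-boxes began 215 and 48 bases before the annotated start, and in Nop2 the single one began 60 bases before it. A match of letters is a description of the window and not evidence of binding.

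The libraries held 18915587 to 29487384 counts. Osgep, read first as a check of the labels, was at 20.6, 58.6 and 21.8 CPM (read counts relative to library size after TMM scaling, which evens out differences in composition) in the shCtr libraries in order of replicate number. It was at 4.28, 0.542 and 5.52 CPM in the shOSGEP libraries, so every depleted library lay below every control (Log2FC -3.29, SE 0.876, exact two-sided permutation p = 0.1, the smallest that 3 libraries against 3 allow). By the quasi-likelihood F-test of edgeR its unadjusted p was 0.00524 and its adjusted p 0.9997, so Osgep itself did not pass the main test after adjustment. The 7 melanocyte markers were above 1 CPM in every library. Their summed level was 17038 to 29599 CPM in shCtr and 3551 to 18083 CPM in shOSGEP, with the low end in shOSGEP replicate 2. Of the 5 leukocyte markers 4 were at 0 in every library, and the endothelial and epithelial markers were all under 1 CPM. The 4 fibroblast markers summed to 5.06 to 11.2 CPM in shCtr and 12.98 to 19.5 CPM in shOSGEP, with Dcn at 0, and the part of these differences in the results was not tested. The replicate 2 libraries stood apart from the others, shCtr replicate 2 most of all, so the fold changes of the genes described in full are given with and without both of them.

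No member passed the test. By the quasi-likelihood F-test of edgeR, with p adjusted over 12669 genes by Benjamini-Hochberg, 0 of 35 had an adjusted p under 0.05, against 0.0% of all genes, and the adjusted p was 1.00 for each of the 35. At an unadjusted p under 0.05 the count was 0 of 35, against 2.02% of all genes. The study's own threshold, a Log2FC beyond 0.5 with an unadjusted p under 0.05, was passed by 0 of 35 members, against 1.59% of all genes higher and 0.426% lower. DESeq2 and limma-voom with sample quality weights also called 0 of 35, against 0.111% and 0.0237% of all genes. At an unadjusted p under 0.05 both again had 0 of 35, with 2.92% of all genes in DESeq2 and 4.43% in limma-voom. Log2FC (shOSGEP minus shCtr) was below 0 for 24 of 35 members, against 52.7% of all genes. Their median was -0.32, with the median of all genes at -0.03, and single values ran from -1.27 (Nhp2) to 0.55 (Nop14). All 35 intervals of 95% covered 0. With a median half-width of 1.14 on the log2 scale, a difference of 2-fold in a typical member could not be told from 0. Without both replicate 2 libraries the median was -0.04 and the values ran from -0.29 (Nolc1) to 0.27 (Bysl). Their 95% intervals again all covered 0, with a median half-width of 0.836, and 20 of the 35 lay wholly within 1 log2 unit of 0. The intervals of all 35 lay between -1.23 and 1.32.

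**Figure D1:**
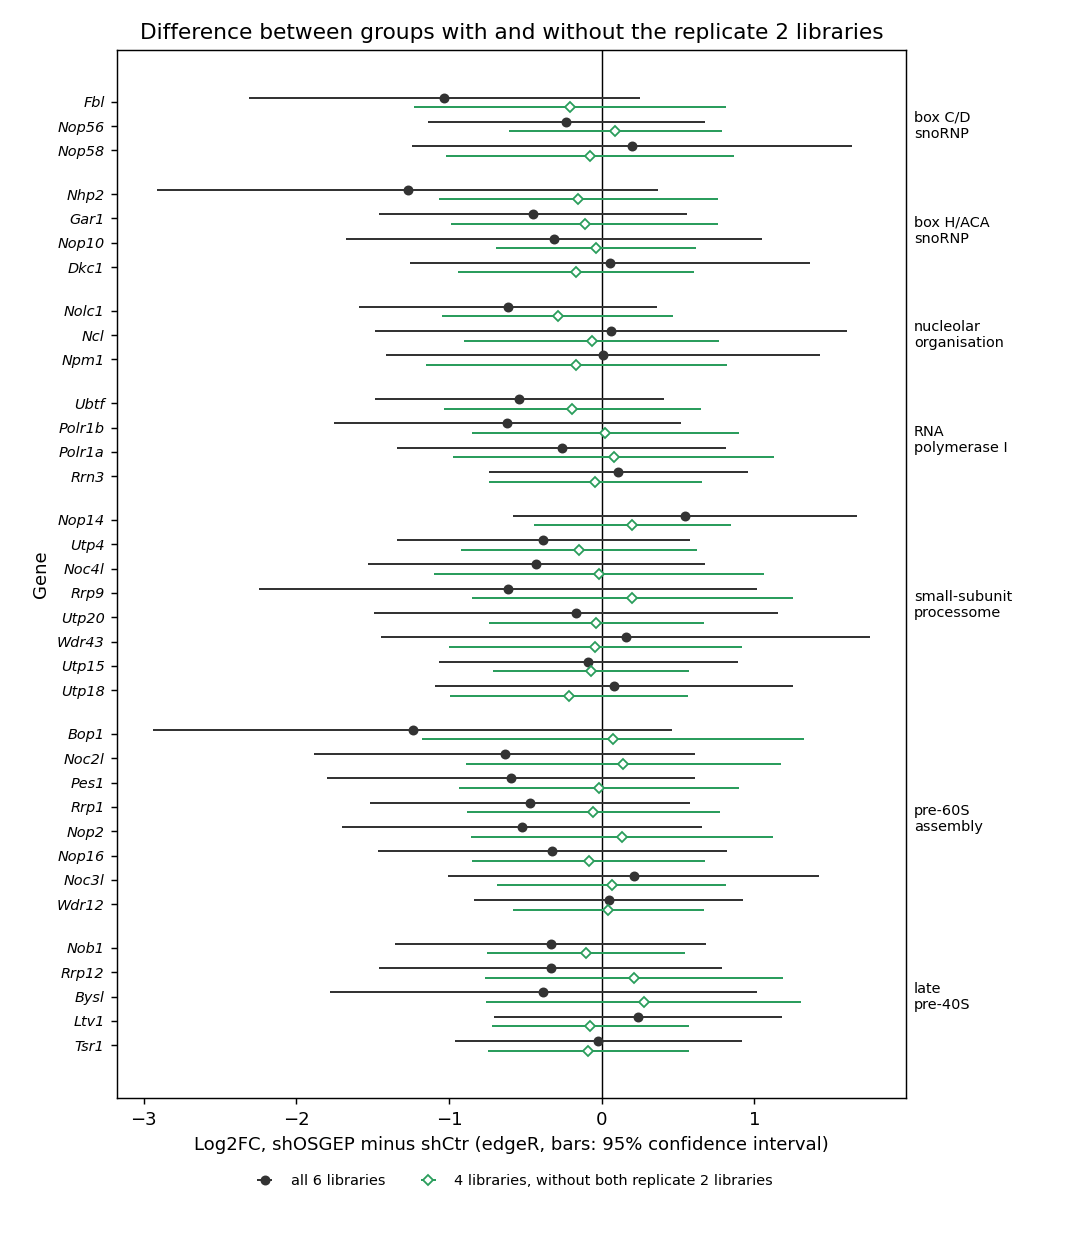
Log2FC of shOSGEP minus shCtr for the 35 genes (horizontal axis, log2 units) with 95% confidence intervals from edgeR, grouped by role. Filled circles use all 6 libraries and open diamonds the 4 libraries left without both replicate 2 libraries. All intervals cross 0, and the values without replicate 2 lie between -0.29 and 0.27.

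Groups were separated for 1 member. Nop14, a component of the small-subunit processome, was higher in every shOSGEP library than in any shCtr library (background 3.49% of all genes), and 0 members were lower in every one (2.87%). Nop14 (ENSMUSG00000036693, chr5:34638536-34660148, minus strand) read 62.1, 20.6 and 57.4 CPM in the controls and 74.3, 67.3 and 63.0 CPM after OSGEP depletion. The lowest shOSGEP library exceeded the highest shCtr library by little, and the low shCtr value was that of replicate 2. Its Log2FC was 0.55 (SE 0.491, unadjusted p = 0.298), and 0.20 without the replicate 2 libraries. An exact two-sided permutation test gave p = 0.1, the same smallest possible value. Any gene with separated groups gets this value, so it adds nothing to the separation. In either direction the count was 1 of 35 (6.36% of all genes), 0 with RLE scaling (6.57%), where the groups of Nop14 overlapped as well, and 2 with offsets for GC content and transcript length (12.5%). Smaller groups separate more easily, and the count was 9 without shCtr replicate 1 (20.9% of all genes), 2 without shCtr replicate 2 (15.7%), 2 without shCtr replicate 3 (9.72%), 1 without shOSGEP replicate 1 (9.06%), 1 without shOSGEP replicate 2 (10.3%) and 6 without shOSGEP replicate 3 (20%). Without both libraries of a number it was 9 for number 1 (23.7%), 2 for number 2 (21.2%) and 7 for number 3 (23.4%). Compared number by number, 8 members were lower in shOSGEP in all 3 comparisons (17.1% of all genes were), namely Fbl, Gar1, Nolc1, Ubtf, Noc4l, Utp4, Nop16 and Nob1. A further 3 were higher in all of them (17.3% of all genes), namely Nop14, Noc3l and Wdr12.

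**Figure D2:**
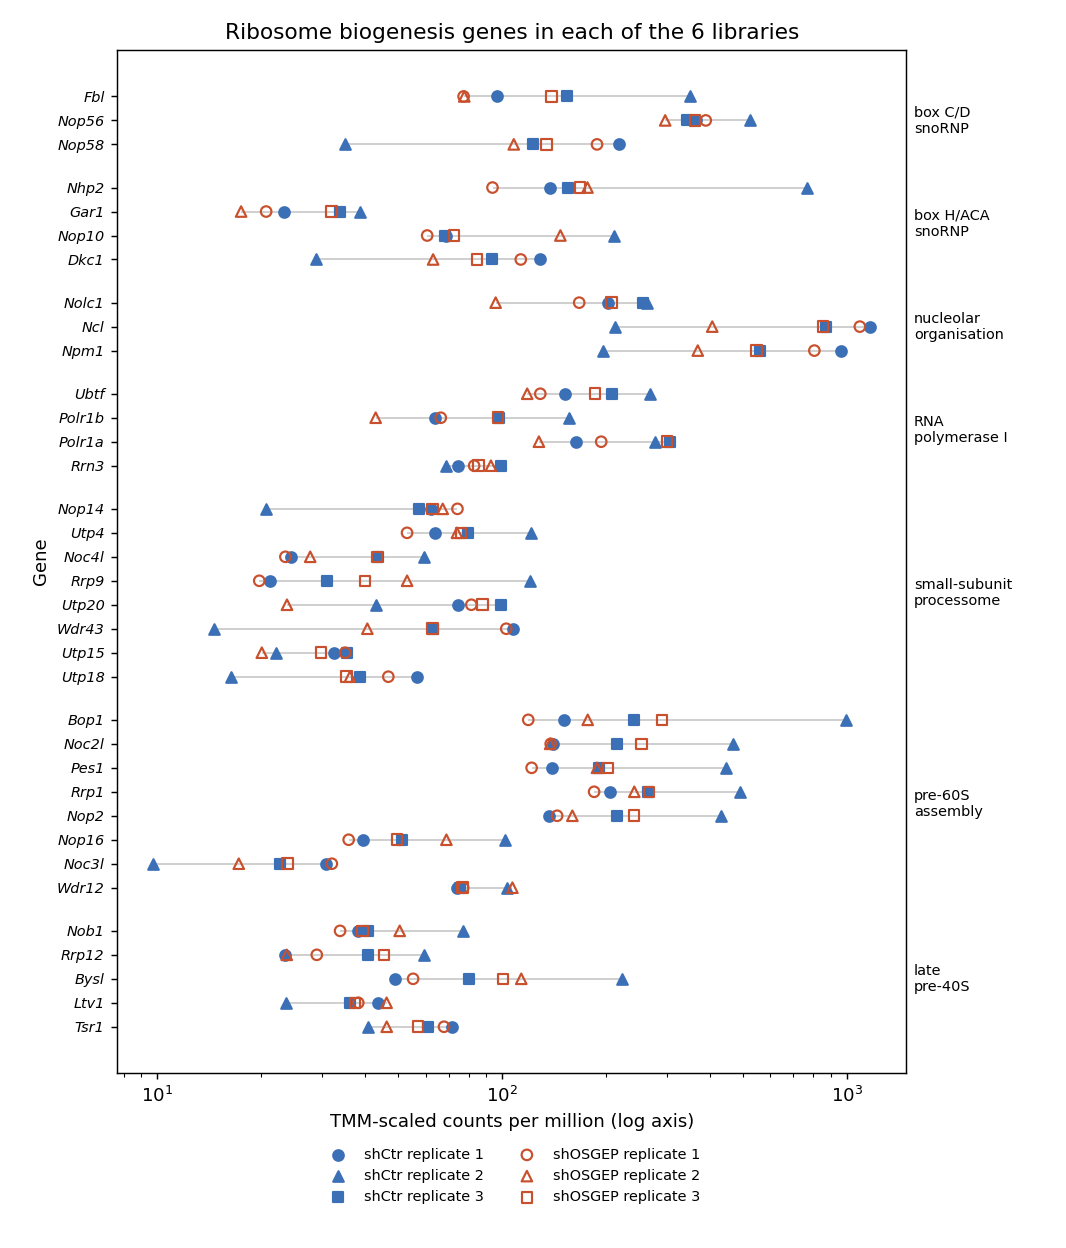
TMM-scaled CPM of the 35 genes in each library on a log axis, grouped by role. Filled blue symbols are shCtr, open red symbols shOSGEP, and the symbol shape gives the replicate number. shCtr replicate 2 (filled triangles) is the highest of the 6 libraries for 20 genes and the lowest for 11.

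The box C/D ribonucleoprotein core carries Fbl (fibrillarin), the enzyme that methylates ribose in ribosomal RNA, and the scaffold proteins Nop56 and Nop58. Fbl (ENSMUSG00000046865, chr7:28169710-28179269, plus strand) read 96.8, 350.4 and 154.1 CPM in the controls and 77.4, 77.7 and 139.3 CPM after OSGEP depletion. The control mean of 200.4 ± 133.0 CPM (SD, n = 3) was set mostly by replicate 2, and the ranges of the groups overlapped. Its Log2FC was -1.03 (SE 0.559, unadjusted p = 0.102), the smallest p among the 35, and -0.21 without replicate 2. Of the 31-base words of the Fbl transcript 75.2% also occur in other genes, mainly processed pseudogenes, so the split of its reads is uncertain. Nop56 (38.2% of words shared) read 364.6, 523.8 and 343.7 CPM in the controls and 389.7, 297.3 and 363.0 CPM after OSGEP depletion. Nop58 read 218.2, 35 and 122.7 CPM in the controls and 188.6, 108.2 and 134.8 CPM after OSGEP depletion. In shCtr replicate 2 these partners thus went opposite ways, Fbl and Nop56 to their highest value and Nop58 to its lowest. Log2FC was -0.23 (SE 0.397, unadjusted p = 0.576) for Nop56 and 0.20 (SE 0.629, unadjusted p = 0.760) for Nop58, and 0.09 and -0.08 without replicate 2. Nop56 and Nop58 are among 6 members whose loci hold snoRNA genes, 18 in all, which were not analysed here. The loci of 13 members overlap that of a gene on the opposite strand. Where exons overlap, reads cannot be told apart without strand, but overlap of exons was not examined.

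The box H/ACA core converts uridine to pseudouridine through Dkc1 (dyskerin), the synthase, held by Nhp2, Nop10 and Gar1. Nhp2 (ENSMUSG00000001056, chr11:51619735-51623714, plus strand) read 137.6, 767.2 and 155.2 CPM in the controls and 93.8, 176.9 and 168.5 CPM after OSGEP depletion. That single control library exceeded the other 5 together. Its Log2FC of -1.27 (SE 0.715, unadjusted p = 0.112) was the lowest of the 35 and came to -0.15 without replicate 2. Gar1 read 23.3, 38.8 and 33.8 CPM in the controls and 20.7, 17.5 and 32.0 CPM after OSGEP depletion, with a Log2FC of -0.45 (SE 0.440, unadjusted p = 0.336), or -0.11 without replicate 2. Nop10 read 68.9, 211.4 and 68.2 CPM in the controls and 60.7, 147.6 and 72.6 CPM after OSGEP depletion, high in both replicate 2 libraries, and had a Log2FC of -0.31 (SE 0.594, unadjusted p = 0.615), or -0.04 without them. Dkc1 read 129.2, 28.9 and 93.2 CPM in the controls and 113.3, 63.1 and 84.6 CPM after OSGEP depletion. It was low in both replicate 2 libraries, and its Log2FC was 0.06 (SE 0.572, unadjusted p = 0.926), or -0.17 without them.

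Of the proteins that organise the nucleolus, Ncl (nucleolin) and Npm1 (nucleophosmin) were the most abundant per coding kilobase, and Nolc1 (Nopp140) is a chaperone of small nucleolar ribonucleoproteins. Ncl (ENSMUSG00000026234, chr1:86344719-86359400, minus strand) read 1169, 213.2 and 868.7 CPM in the controls and 1090, 406.9 and 852.8 CPM after OSGEP depletion. Npm1 (45.5% of words shared, mainly with processed pseudogenes) read 958.4, 195.7 and 560.6 CPM in the controls and 804.7, 369.4 and 547.1 CPM after OSGEP depletion. Both were lowest in shCtr replicate 2, next lowest in shOSGEP replicate 2, and close between groups at the other numbers. Log2FC was 0.06 (SE 0.674, unadjusted p = 0.928) for Ncl and 0.01 (SE 0.620, unadjusted p = 0.993) for Npm1, the sign of the latter turning to -0.02 with RLE scaling. Without replicate 2 they were at -0.07 and -0.17. Nolc1 (ENSMUSG00000015176, chr19:46075863-46085530, plus strand) read 202.7, 262.6 and 256.3 CPM in the controls and 167.4, 95.8 and 207.7 CPM after OSGEP depletion. It was lower in shOSGEP at every number, although the highest shOSGEP library lay above the lowest shCtr library. Its Log2FC was -0.62 (SE 0.426, unadjusted p = 0.185) and -0.29 without replicate 2, the lowest value of any member there.

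RNA polymerase I was represented by its large subunits Polr1a and Polr1b, by Ubtf, the factor that coats active ribosomal DNA, and by Rrn3, which links the polymerase to its promoter. Ubtf read 152.1, 269.2 and 209.0 CPM in the controls and 129.1, 118.3 and 185.9 CPM after OSGEP depletion, lower at every number, with a Log2FC of -0.54 (SE 0.413, unadjusted p = 0.225), or -0.19 without replicate 2. Polr1b read 64.0, 155.9 and 97.8 CPM in the controls and 66.4, 43.0 and 97.4 CPM after OSGEP depletion. Its groups were within 1 CPM of each other at number 3, and its Log2FC of -0.62 (SE 0.495, unadjusted p = 0.245) was 0.02 without replicate 2. Polr1a read 164.1, 276.8 and 306.7 CPM in the controls and 193.9, 127.9 and 301.2 CPM after OSGEP depletion, with a Log2FC of -0.26 (SE 0.470, unadjusted p = 0.590), or 0.08 without replicate 2. Rrn3, the member with 2 E-boxes in its promoter window, was the steadiest of the 35 by its error, with a Log2FC of 0.11 (SE 0.370), or -0.04 without replicate 2, and levels between 68.6 and 99 CPM.

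The small-subunit processome was covered by 8 genes, 5 of them with a Log2FC below 0, around a median of -0.13 (-0.04 without replicate 2). Utp4, a subunit of the complex that first binds the precursor, read 63.8, 121.5 and 79.7 CPM in the controls and 53.0, 74.0 and 76.1 CPM after OSGEP depletion. It was lower at every number, and its Log2FC was -0.38 (SE 0.418, unadjusted p = 0.385), or -0.15 without replicate 2. Noc4l, the partner of Nop14, read 24.4, 59.4 and 43.6 CPM in the controls and 23.5, 27.8 and 43.4 CPM after OSGEP depletion, with a Log2FC of -0.43 (SE 0.482, unadjusted p = 0.399). Its groups were nearly level at numbers 1 and 3, and its Log2FC without replicate 2 was -0.02. The other 5, Rrp9 (a protein of the U3 particle), Wdr43, Utp15, Utp18 and the large scaffold Utp20, had Log2FC values from -0.61 (Rrp9) to 0.16 (Wdr43), these ends being at 0.20 and -0.04 without replicate 2. Wdr43 lay lowest of all members in shCtr replicate 2 relative to the other controls, at 14.6 CPM against 107.4 and 63.2 CPM in the other controls.

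The pre-60S group held 8 genes, 6 with a Log2FC below 0 and a median of -0.49 (0.05 without replicate 2). Bop1, Pes1 and Wdr12 form the PeBoW complex, which is needed to process the large-subunit rRNA. Bop1 (ENSMUSG00000022557, chr15:76452989-76477277, minus strand) read 150.8, 994.4 and 241.0 CPM in the controls and 119.1, 177.2 and 291.3 CPM after OSGEP depletion. The value in shCtr replicate 2 exceeded every other by more than 3-fold, and the comparison at number 3 pointed upwards. Its Log2FC was -1.24 (SE 0.741, unadjusted p = 0.132) and 0.07 without replicate 2. Pes1 (34.5% of words shared) read 139.4, 445.1 and 190.6 CPM in the controls and 121.8, 188.6 and 202.6 CPM after OSGEP depletion, with a Log2FC of -0.60 (SE 0.526, unadjusted p = 0.289). Noc2l, which pairs with Noc3l on the early large-subunit particle, read 140.8, 466.6 and 216.1 CPM in the controls and 138.4, 137.9 and 253.7 CPM after OSGEP depletion, with a Log2FC of -0.64 (SE 0.544, unadjusted p = 0.275). All 3 were highest in shCtr replicate 2, and without replicate 2 Pes1 was at -0.02 and Noc2l at 0.14. The remaining 5 were Nop2 (an rRNA cytosine methyltransferase), Nop16, Rrp1, Noc3l and Wdr12, whose Log2FC ran from -0.52 (Nop2) to 0.21 (Noc3l), these ends being at 0.13 and 0.06 without replicate 2. Wdr12 differed from its 2 partners in reading alike in both replicate 2 libraries, at 103.3 CPM in shCtr and 107.2 CPM in shOSGEP, and at 74.2 to 77.1 CPM in the other 4.

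The late pre-40S group held 5 genes, 4 with a Log2FC below 0 and a median of -0.33 (-0.08 without replicate 2). Nob1 is the nuclease that makes the final cut of the small-subunit rRNA, and Bysl (bystin) and Rrp12 act in the assembly and export of the particle. Nob1 read 38.2, 77.1 and 40.8 CPM in the controls and 33.9, 50.5 and 39.5 CPM after OSGEP depletion, with a Log2FC of -0.33 (SE 0.445, unadjusted p = 0.474), or -0.10 without replicate 2. Rrp12 read 23.5, 59.2 and 40.9 CPM in the controls and 29.0, 23.8 and 45.4 CPM after OSGEP depletion, with a Log2FC of -0.33 (SE 0.490, unadjusted p = 0.515). Bysl read 49.1, 222.1 and 80.3 CPM in the controls and 55.2, 113.7 and 100.6 CPM after OSGEP depletion, with a Log2FC of -0.38 (SE 0.610, unadjusted p = 0.547). Rrp12 and Bysl were higher in shOSGEP at numbers 1 and 3 and lower at number 2, and without replicate 2 their Log2FC was 0.21 and 0.27. Tsr1, a GTPase-like assembly factor, and Ltv1, a factor of pre-40S export, had Log2FC values of -0.02 and 0.24, and of -0.09 and -0.08 without replicate 2.

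The difference between groups was thus concentrated in 1 of the 3 numbered comparisons. The log2 ratio of shOSGEP over shCtr lay within 0.5 of 0 for 34 of 35 members at number 1 (median -0.10) and for 35 of 35 at number 3 (median -0.01). At number 2 it did so for 4 of 35, with a median of -0.82 and a range from -2.49 (Bop1) to 1.70 (Nop14). Osgep itself was also reduced most at number 2, at a log2 ratio of -6.76 against -2.27 and -1.98 at numbers 1 and 3. Depth of depletion and other features of the replicate 2 libraries cannot be told apart here. The direction at number 2 followed the GC content of the coding sequence. The ratio there was below 0 for all 19 members with a coding GC of 50% or more (median -1.19) and for 4 of the 16 under 50% (median 0.87). In the fit with all 6 libraries, all 19 had a Log2FC below 0, with a median of -0.52, whereas 5 of the 16 under 50% did, with a median of 0.06. With upper-quartile scaling the counts were 19 of 19 and 3 of 16. The division at 50% was chosen after the values were seen. The members as a group were not rich in GC, with a median of 51.4% against 52.9% for all genes tested.

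**Figure D3:**
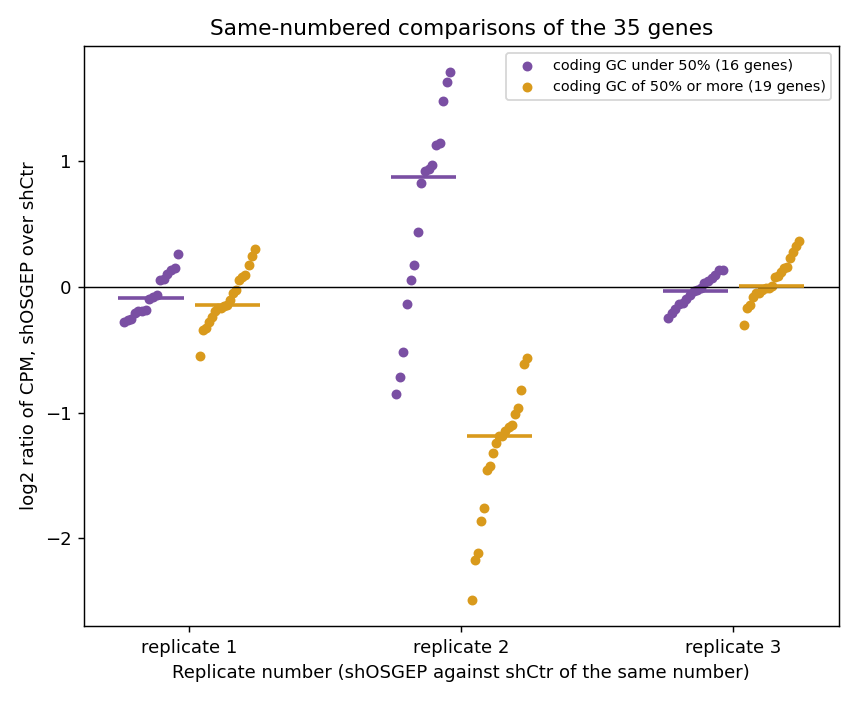
log2 ratio of CPM, shOSGEP over shCtr of the same replicate number, for the 35 genes (points), with genes of coding GC under 50% and of 50% or more side by side and bars at the medians. At number 2 the medians are 0.87 and -1.19, and at numbers 1 and 3 every median lies between -0.14 and 0.01.

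A dependence on coding GC was also seen between libraries of the control group. Across the 35 members, the log2 difference of shCtr replicate 2 from the mean of the other shCtr libraries went with coding GC (Pearson r = 0.857, Spearman rho = 0.834). Across 11467 genes with a coding sequence the values were 0.638 and 0.633. The points share their libraries and are not independent, so these are descriptions. The median difference of all genes ran from -3.81 at a coding GC of 36 to 40% up to 1.18 at 64 to 68%. The members ran the same way, from -2.23 (Nop58, 40.7% GC) to 2.23 (Rrp9, 60.6% GC). Nhp2 and Bop1 lay highest at 2.39 and 2.38, and Nolc1 lay near 0 at 0.20 in spite of its GC of 54.2%. Log2FC of the members went against coding GC (Pearson r = -0.783, Spearman rho = -0.813). It includes the same shCtr replicate 2 values and is not a separate observation. shCtr replicates 1 and 3 also differed from each other by GC, the log2 difference of replicate 1 minus replicate 3 being lower in members of higher GC (r = -0.788, rho = -0.776). Whether this comes from the libraries or from the cells was not tested.

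**Figure D4:**
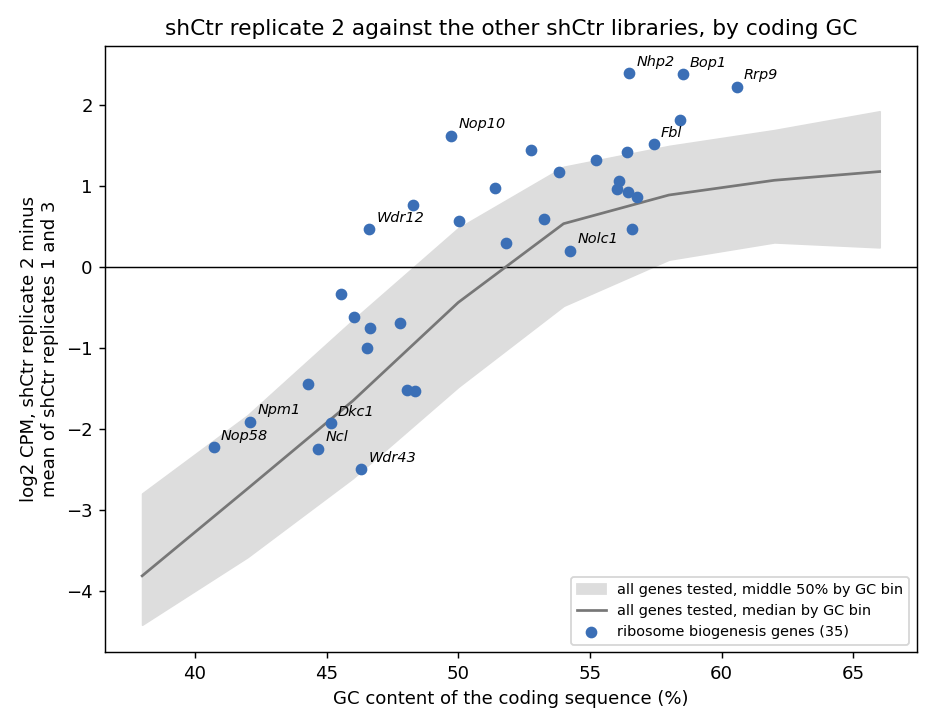
Difference in log2 CPM between shCtr replicate 2 and the mean of shCtr replicates 1 and 3 (vertical axis) against the GC content of the coding sequence (horizontal axis, %), for the 35 genes (points). The grey line and band are the median and the middle 50% of all genes tested in bins of GC, and the points run from -2.50 (Wdr43) to 2.39 (Nhp2) in the same direction as the grey line.

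Partners of one complex act in fixed proportions, and their ratio within a library does not depend on how that library is scaled. The 12 pairs were chosen after values had been seen. Fbl over Nop58 stood at a log2 ratio of 3.32 in shCtr replicate 2, against -1.29 to 0.33 in the other 5 libraries. Nhp2 over Dkc1 stood at 4.73 there, against -0.27 to 1.49. Noc2l over Noc3l was at 5.58 against 2.11 to 3.41, Bop1 over Wdr12 at 3.27 against 0.63 to 1.92, and Noc4l over Nop14 at 1.53 against -1.66 to -0.40. In each of these pairs the partner with the higher coding GC was the one in excess in that library. Nop10 over Dkc1, which are closer in GC at 49.7% and 45.2%, was at 2.87 against -0.91 to 1.23. Bop1 over Pes1 was at 1.16 against -0.09 to 0.52, and Rrp9 over Fbl lay inside the range of the others at -1.54. With shCtr replicate 2 set aside, the groups overlapped in 11 of the 12 pairs. The exception was Rrp9 over Fbl, at -2.19 and -2.31 in the other controls and at -1.97, -0.55 and -1.80 in shOSGEP. Small groups separate easily, and without shCtr replicate 2 the groups did not overlap for 15.7% of all single genes. No such share was computed for ratios, so nothing is read from this pair.

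**Figure D5:**
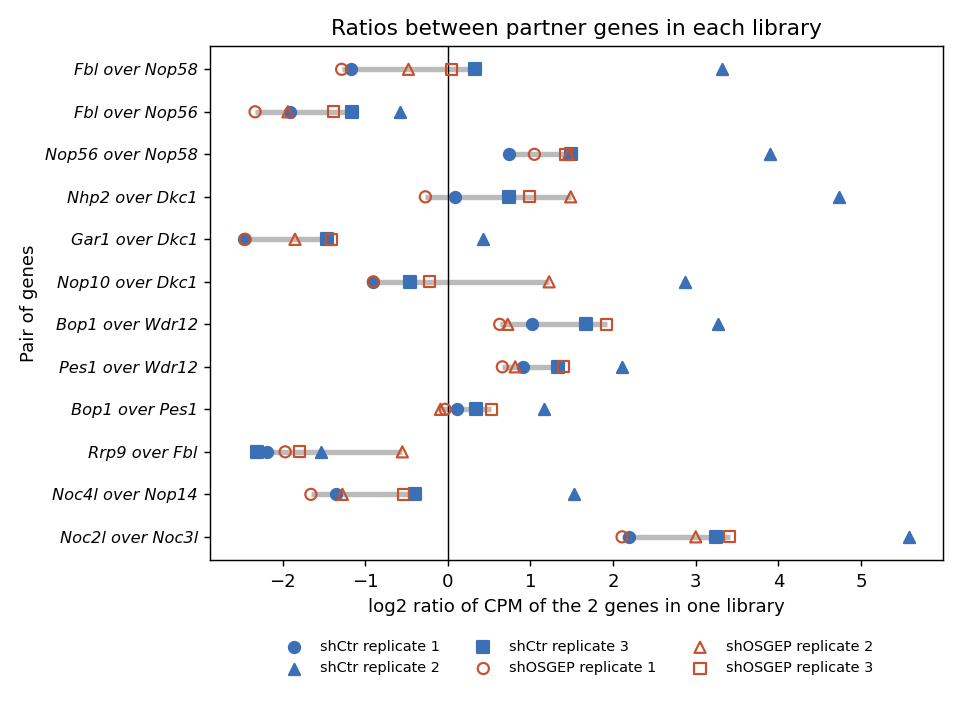
log2 ratio of CPM between 2 genes of one complex or step in each library, with filled blue symbols for shCtr, open red symbols for shOSGEP and the symbol shape for the replicate number. Grey bars span the 5 libraries other than shCtr replicate 2, which lies outside the bar for every pair but Rrp9 over Fbl.

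Offsets for the GC content and length of the whole transcript were fitted as an alternative, with both replicate 2 libraries kept. Whether they removed the dependence on coding GC was not tested. With the offsets, 33 of 35 members had a Log2FC below 0, against 55.2% of all genes, and the median was -0.27 against -0.05. The exceptions with the offsets were Nop14 (0.47) and Wdr43 (0.02). Nhp2 was at -0.78, Bop1 at -0.74, Fbl at -0.58 and Nolc1 at -0.51, and Wdr12 moved from 0.05 to -0.81. None passed the test, and 0 of 35 had an adjusted p under 0.05. Gar1, Nob1, Rrp12 and Bysl were between -0.22 and -0.14. In the fit without offsets and without both replicate 2 libraries, 23 of 35 were below 0, with a median of -0.04 against -0.01 for all genes. The share of all genes below 0 was not computed for that fit.

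Of the settings that left out libraries, members passed the study's threshold in the one without shCtr replicate 1. There, 3 members passed the study's threshold as lower, Fbl (Log2FC -1.36, unadjusted p = 0.0371), Bop1 (-1.65, unadjusted p = 0.0388) and Nhp2 (-1.65, unadjusted p = 0.0396) in edgeR. The background was 1.45% of all genes lower, and none of the 3 passed after adjustment (adjusted p = 0.738 by edgeR for each). In that setting shCtr replicate 2 is 1 of 2 controls. In limma-voom with sample quality weights and the replicate block, 3 members had an unadjusted p under 0.05, against 23.0% of all genes. They were Nhp2 (Log2FC -0.38, unadjusted p = 0.00711), Fbl (-0.30, unadjusted p = 0.0320) and Nolc1 (-0.30, unadjusted p = 0.0340). None had an adjusted p under 0.05 (11.1% of all genes did), the lowest being that of Nhp2 at 0.0589 by limma-voom.

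The levels themselves were compared per kilobase of coding sequence. In shCtr the order was led by Nhp2 at 765 ± 776 CPM per coding kilobase, Npm1 at 650 ± 434, Nop10 at 596 ± 423 and Ncl at 353 ± 230 (SD, n = 3). It ended with Rrp12 at 10.6 ± 4.6, Noc3l at 8.7 ± 4.4 and Utp20 at 8.6 ± 3.4. In every pair of neighbours the difference was below the larger of both SDs, so the order is clear only over wide steps. The place of Nhp2 rested on shCtr replicate 2, where it stood at 1661 against 298 and 336 in replicates 1 and 3. Npm1 led in those 2 libraries, at 1090 and 638, and had the highest mean in shOSGEP, at 653 ± 249, with Nhp2 at 317 ± 98.95. All members together took 0.412% to 0.593% of the counts of a library, the lowest share being that of shOSGEP replicate 2 and the next lowest, 0.502%, that of shCtr replicate 2.

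The codon share of the members moved with their GC content (Pearson r = -0.697, Spearman rho = -0.738, 35 genes). With all libraries, Log2FC was higher in members with more ANN codons (r = 0.556, rho = 0.594). Without the replicate 2 libraries the relation had the other sign (r = -0.353, rho = -0.319). Across all genes tested the values were 0.205 and 0.263 with all libraries and -0.114 and -0.166 without number 2. Nolc1 and Gar1, at the ends of the codon range, had Log2FC values of -0.62 and -0.45. These points share libraries and GC content and are given as a description.

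Myc, the regulator whose sites were searched, read 62.1, 43.7 and 67.8 CPM in the controls and 59.5, 29.0 and 61.5 CPM after OSGEP depletion. It was slightly lower in shOSGEP at each number, by less than the spread between libraries (Log2FC -0.21, SE 0.449, unadjusted p = 0.651, and -0.10 without replicate 2). The 9 members with an E-box in the window had 5 Log2FC values below 0 and a median of -0.02, and the 22 without one had 16 below 0 and a median of -0.33. Of the 9, 7 had a coding GC under 50%, as did 8 of the 22. Without replicate 2 the medians were -0.04 and -0.05, with 8 of 9 and 13 of 22 below 0. Of the 10 genes listed for the MYC network 9 were tested, 7 of them with a Log2FC below 0 (4 with upper-quartile scaling). The MYC antagonist Mxd3 had the smallest p of that list (Log2FC -1.80, SE 0.749, unadjusted p = 0.0418), which rested on 116.8 CPM in shCtr replicate 2 against 8.06 to 29.5 CPM in the other 5. Its value was -0.39 without replicate 2. Mxd1 was higher in every shOSGEP library (22.5 to 47.7 CPM) than in any shCtr library (6.10 to 22.4 CPM), the nearest libraries differing by less than 1 CPM, with a Log2FC of 0.99 (SE 0.594, unadjusted p = 0.133). Both ends, 6.10 and 47.7 CPM, were replicate 2 libraries, and the Log2FC without them was 0.16.

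The rest of the pathway was read from lists of 95 further ribosome biogenesis genes, all tested. None passed an unadjusted p under 0.05, and 56 had a Log2FC below 0 around a median of -0.10. Upper-quartile scaling, which raised the median of all genes by 0.10, put 46 of them below 0 and their median at 0.01. By step, 26 of 34 further processome genes were below 0 (median -0.14), 22 of 43 pre-60S genes (median -0.03, but 0.07 with upper-quartile scaling), 6 of 11 polymerase I genes (median -0.22) and 2 of 7 pre-40S genes (median 0.43). Without replicate 2 these 4 medians were -0.05, 0.01, -0.10 and -0.02, so the value of the pre-40S genes turned and all lay near 0. Polr1c, a subunit shared by polymerases I and III, had the smallest p at a Log2FC of -0.96 (SE 0.607, unadjusted p = 0.151). It read 94.8, 389.7 and 114.1 CPM in the controls and 71.0, 112.8 and 123.5 CPM after OSGEP depletion, and its Log2FC without replicate 2 was -0.10. Riok3, a kinase of the pre-40S group, was at the other end (Log2FC 0.82, SE 0.564, unadjusted p = 0.185), with 0.08 left without replicate 2. Of 82 cytosolic ribosomal protein genes 79 were tested, 59 of them below 0 (median -0.33), and of 78 mitochondrial ones 57 were (median -0.27). Only Mrps27 among these had an unadjusted p under 0.05 (Log2FC -1.55, SE 0.624, unadjusted p = 0.0365). Its control values were 29.6, 114.0 and 42.8 CPM, the high one being replicate 2, and without replicate 2 its Log2FC was -0.56 (unadjusted p = 0.241). Without replicate 2 the medians were -0.04 for the 95 genes, -0.07 for the cytosolic and -0.06 for the mitochondrial ribosomal proteins, near the -0.04 of the 35 members and the -0.01 of all genes.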

How the data were processed

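RNA was extracted from B16F10 cells after 3 independent infections with scramble (shCtr) or OSGEP (shOSGEP) shRNA. PolyA libraries were made from 500 ng of total RNA with a kit not stated to keep strand, and sequenced as paired reads of 100 bases. The authors aligned the reads to GRCm38 with STAR 2.6.1d and deposited estimated counts per Ensembl gene from Salmon 1.4.0, without normalisation or filter. The annotation release is not given in the sources used here.

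Counts were rounded, filtered with filterByExpr (minimum count 10, total 15), TMM-scaled and tested with edgeR 4.0.16 (R 4.3.3) by the quasi-likelihood F-test, two-sided, without a block, adjusted over 12669 genes. The SE is the Log2FC divided by the square root of F. Libraries held 18915587 to 29487384 counts, so 3 counts correspond to 0.116 to 0.147 CPM. Such limits cover counting error only. Since salmon shares reads between similar genes, genes with pseudogene copies are less certain. Alternatives were DESeq2 1.42.0, scaling by upper quartile or RLE, a stricter filter or none, voom from limma 3.58.1 with weights for library quality, a replicate block, offsets for GC content and transcript length (splines with 5 degrees of freedom), and leaving out libraries. The edgeR script was tested on simulated data with far less spread between libraries than here and no GC trend. That run does not show how the test performs on these data.

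Deviations of same-numbered libraries from their group means correlated at 0.811, 0.557 and 0.196, all above the limit of 0.1. The numbers were therefore used as pairs in the number-by-number comparisons and in the replicate block, which was an alternative. The main test, with its SE, p and intervals, did not use the pairing. The labels do not say what a number marks. The highest correlation between different numbers was 0.491.

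Members were chosen by name. The members and all lists were chosen with earlier results of these data known. Full values are given for the 3 members with the smallest unadjusted p in each role group and for the defining members Fbl, Dkc1, Ncl, Npm1, Polr1a, Ubtf, Bop1, Pes1, Bysl and Nob1. Coding sequences and loci came from GENCODE M21, which matched 99.9% of the tested IDs, and promoters from RefSeq.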

Additional observations from a re-analysis of the deposited data

How the results depend on the processing

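Under 19 alternatives, 10 of them keeping all libraries, 0 of 35 members had an adjusted p under 0.05 in edgeR, DESeq2 or limma-voom. The median Log2FC of the members stayed below 0, between -0.35 and -0.08 where all libraries were kept and between -0.57 (without shCtr replicate 1) and -0.04 (without both replicate 2 libraries) where libraries were left out. It was -0.28 with the replicate block, which called 0 members, as the pairing by replicate number changed no call of a member in edgeR. Members past the study's threshold ranged from 0 to 3 over the leave-one-out settings. The members whose groups did not overlap numbered 0 with RLE scaling and 2 with GC and length offsets (12.5% of all genes), and 1 to 9 when libraries were left out (9.06% to 23.7% of all genes), where fewer libraries make separation easier. Osgep did not pass an adjusted p under 0.05 in the main fit, but did with DESeq2 (Log2FC -3.32) and with limma-voom and the replicate block (-2.23).

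The sign of a Log2FC changed under some alternative for 27 of the 35 members, none of them called, and under no alternative for Fbl, Gar1, Noc4l, Nolc1, Nop14, Rrp1, Ubtf and Utp4. The cause was not tested. Log2FC turned with limma-voom and quality weights for Nop56 (0.062), Dkc1 (-0.077), Nop10 (0.077), Ncl (-0.040), Rrn3 (-0.14), Rrp9 (0.11), Utp18 (-0.049) and Bysl (0.12). It turned with those weights and the replicate block for Nop56 (0.075), Nop58 (-0.076), Dkc1 (-0.15), Ncl (-0.058), Npm1 (-0.16), Polr1a (0.14), Polr1b (0.0035), Wdr43 (-0.025), Rrp9 (0.026), Utp18 (-0.22), Utp20 (0.026), Nop2 (0.078), Noc2l (0.020), Rrp12 (0.22), Bysl (0.20) and Ltv1 (-0.10). With GC and length offsets it turned for Nop58 (-0.053), Dkc1 (-0.19), Ncl (-0.27), Npm1 (-0.25), Rrn3 (-0.21), Utp18 (-0.27), Noc3l (-0.16), Wdr12 (-0.81) and Ltv1 (-0.057), and with the offsets and the replicate block for Nop58 (-0.065), Dkc1 (-0.20), Ncl (-0.25), Npm1 (-0.29), Rrn3 (-0.16), Utp18 (-0.26), Noc3l (-0.14), Wdr12 (-0.43) and Ltv1 (-0.065). It turned with DESeq2 for Npm1 (-0.016), with RLE scaling for Npm1 (-0.016), with upper-quartile scaling for Utp15 (0.0067) and Tsr1 (0.074), and with at least 10 counts in every library for Tsr1 (0.011). Over the settings that left out libraries, the ranges that crossed 0 were Nop56 -0.39 to 0.090, Nop58 -0.25 to 0.87, Dkc1 -0.36 to 0.51, Nhp2 -1.75 to 0.0012, Nop10 -0.77 to 0.45, Ncl -0.38 to 0.54, Npm1 -0.41 to 0.60, Polr1a -0.64 to 0.077, Polr1b -1.02 to 0.022, Rrn3 -0.041 to 0.29, Wdr43 -0.31 to 0.82, Rrp9 -1.01 to 0.53, Utp15 -0.27 to 0.12, Utp18 -0.28 to 0.52, Utp20 -0.46 to 0.24, Nop2 -0.91 to 0.13, Nop16 -0.57 to 0.18, Noc2l -1.15 to 0.14, Noc3l -0.14 to 0.59, Wdr12 -0.11 to 0.22, Bop1 -1.96 to 0.075, Pes1 -0.92 to 0.052, Rrp12 -0.66 to 0.21, Nob1 -0.51 to 0.063, Bysl -0.75 to 0.47, Tsr1 -0.22 to 0.16 and Ltv1 -0.075 to 0.49. In the main fit, with 3 libraries a group and a median half-width of 1.14, moderate differences were not detectable. The SE there was smallest for Rrn3 (0.370) and largest for Bop1 (0.741). In limma-voom with quality weights and the replicate block, Rrn3 had an SE of 0.140 and Bop1 of 0.143, and the largest was that of Ncl at 0.158. That setting called 0 of 35 members at an adjusted p under 0.05, against 11.1% of all genes.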
